A study of Rattus norvegicus with 9 samples.

Results

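The genes described here are the 110 rat genes of the mitochondrial ribosome, the mitochondrial carrier family and the mitochondrial protein import machinery that had a probe on the array, out of 13311 named genes on 22523 probes. They were chosen by gene symbol alone, as every symbol that begins with Mrpl or Mrps and a digit, with Slc25a, with Timm or with Tomm, and with 1 probe per gene. There were 36 Mrpl genes, 23 Mrps genes, 33 Slc25a genes, 13 Timm genes and 5 Tomm genes, and each of the 110 had exactly 1 probe. Another 3 probes carry lower-case symbols (mrpl9, mrpl11 and mrpl24) that this rule does not match, which was noticed after the values were seen.

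Messenger RNA of rat brain cortex was measured on 9 single-colour Illumina bead arrays, 3 from normoxic rats at simulated sea level, 3 from hypoxic rats at a simulated altitude of 3 km and 3 from hypoxic rats at 7 km. The sources used here do not state the strain, age or sex of the rats, or how long they were exposed. No label says that the arrays of a group came from separate animals, so the p-values measure only the spread between these samples, which may be technical. In bulk cortex, fewer cells of a type and less RNA per cell cannot be told apart.

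Mitochondria build the proteins encoded by their own DNA on a dedicated ribosome, whose large subunit holds the Mrpl proteins and whose small subunit holds most Mrps proteins. These proteins are encoded in the nucleus, made in the cytosol and imported. The TOM complex of the outer membrane recognises them through the receptors Tomm20, Tomm22 and Tomm70 and passes them through the Tomm40 pore. The TIM23 complex of the inner membrane then takes in proteins with a cleavable presequence. Carriers of the Slc25a family are escorted by small Timm chaperones and inserted by the Timm22 complex. Once in place, they exchange metabolites such as ADP and ATP, phosphate, citrate and oxoglutarate across the inner membrane, on which neurons depend for a steady ATP supply.

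One array, sea level replicate 3, stood apart from the other 8. Over all probes its Spearman correlation with them was 0.642 to 0.660, against 0.969 to 0.978 among the other 8, and over the 110 genes it was 0.878 to 0.908, against 0.968 to 0.992. Its median signal was 204, against 121 to 159, and 8170 of its probes had a detection p-value below 0.05, against 5881 to 6621. Each comparison with sea level is therefore given with all 9 arrays and with the 8 arrays that leave it out, normalized anew. The tissue label is brain cortex, and markers of excitatory cortical neurons, interneurons and astrocytes were detected, among them Slc17a7, Nrgn, Gad1 and Gfap on all 9 arrays. No marker of these 3 lists was detected on 0 arrays. Rorb, Neurod2, Gad2 and Aqp4 were detected on 1 array each, and each had its highest value on sea level replicate 3.

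Detection differed by family. Of the 110 genes, 61 were detected on all 9 arrays and 21 on 0 arrays. Carriers were the least often seen: 11 of 33 Slc25a genes were detected on all 9 arrays and 13 on 0, whereas 22 of 36 Mrpl genes, 16 of 23 Mrps genes, 8 of 13 Timm genes and 4 of 5 Tomm genes were detected on all 9. The dicarboxylate carrier Slc25a10, the glutamate carrier Slc25a22, the import motor subunit Timm44 and the small chaperones Timm8a1 and Timm9 were among those detected on 0 arrays. The others were Mrpl1, Mrpl30, Mrpl41, Mrpl51 and Mrps15 of the ribosome and the carriers Slc25a2, Slc25a16, Slc25a21, Slc25a24, Slc25a26, Slc25a34, Slc25a38, Slc25a40, Slc25a41, Slc25a42 and Slc25a47. Another 12 genes were detected on sea level replicate 3 alone. They were Mrpl14, Mrpl19, Mrps10, Mrps26, Mrps31, Slc25a23, Slc25a51, Slc25a52, Timm21, the cytosolic co-chaperone Tomm34, the carnitine-acylcarnitine carrier Slc25a20 and the uncoupling protein relative Slc25a30. Mrpl17 and Slc25a35 were detected on the other 8 arrays and not on that one. The glutathione carrier Slc25a39 was detected on 2 arrays. A gene was tested where 3 or more arrays detected its probe, which was the case for 75 genes with 9 arrays (30 Mrpl, 19 Mrps, 13 Slc25a, 9 Timm and 4 Tomm). With 8 arrays 74 remained, because the peroxisomal carrier Slc25a17 no longer passed.

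No tested gene of these families passed an adjusted p of 0.05 in limma's moderated test in any of the 3 comparisons, with 9 or with 8 arrays. Of all probes tested, 0.12% passed between 7 km and sea level with 9 arrays and 0.308% with 8 arrays. Between 3 km and sea level, and between 7 km and 3 km, 0% of all probes passed with either set of arrays. Every value below is therefore a difference that did not pass, on the log2 scale of background-corrected and quantile-normalized signal, followed by its standard error.

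At 7 km, most of the tested genes had slightly lower means than at sea level. With 9 arrays 60 of 75 were lower, or 80%, against 52.3% of all tested probes, and with 8 arrays 52 of 74 were lower, or 70.3%, against 50%. At an unadjusted p below 0.05, 11 of 75 were lower and 0 higher, where 6.84% of all tested probes were lower and 4.54% higher. With 8 arrays 9 of 74 were lower and 0 higher, where the shares of all tested probes were 7.05% and 5.49%. The arrays of the groups did not overlap for 19 genes that were lower and 4 that were higher at 7 km (12.5% and 12.2% of all tested probes). With 8 arrays these counts were 22 and 7 of 74, against 16.1% and 16.3%. The median difference with 9 arrays was -0.07 for Mrpl, -0.09 for Mrps, -0.07 for Slc25a, -0.07 for Timm and -0.17 for Tomm, against -0.01 over all tested probes. Without sea level replicate 3 the family medians were -0.02 for Mrpl, -0.05 for Mrps, -0.04 for Slc25a, -0.02 for Timm and -0.04 for Tomm. The Mrpl and Slc25a medians moved by more than the spread of the family mean between replicates (0.032 and 0.030) when that array was left out. For Mrpl this spread includes Mrpl17, which was far lower on that array than on the others. On that array the mean deviation of the Mrpl genes was -0.03 and the median deviation 0.17. The Mrpl spread is therefore a poor yardstick for a shift of the median.

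**Figure D1:**
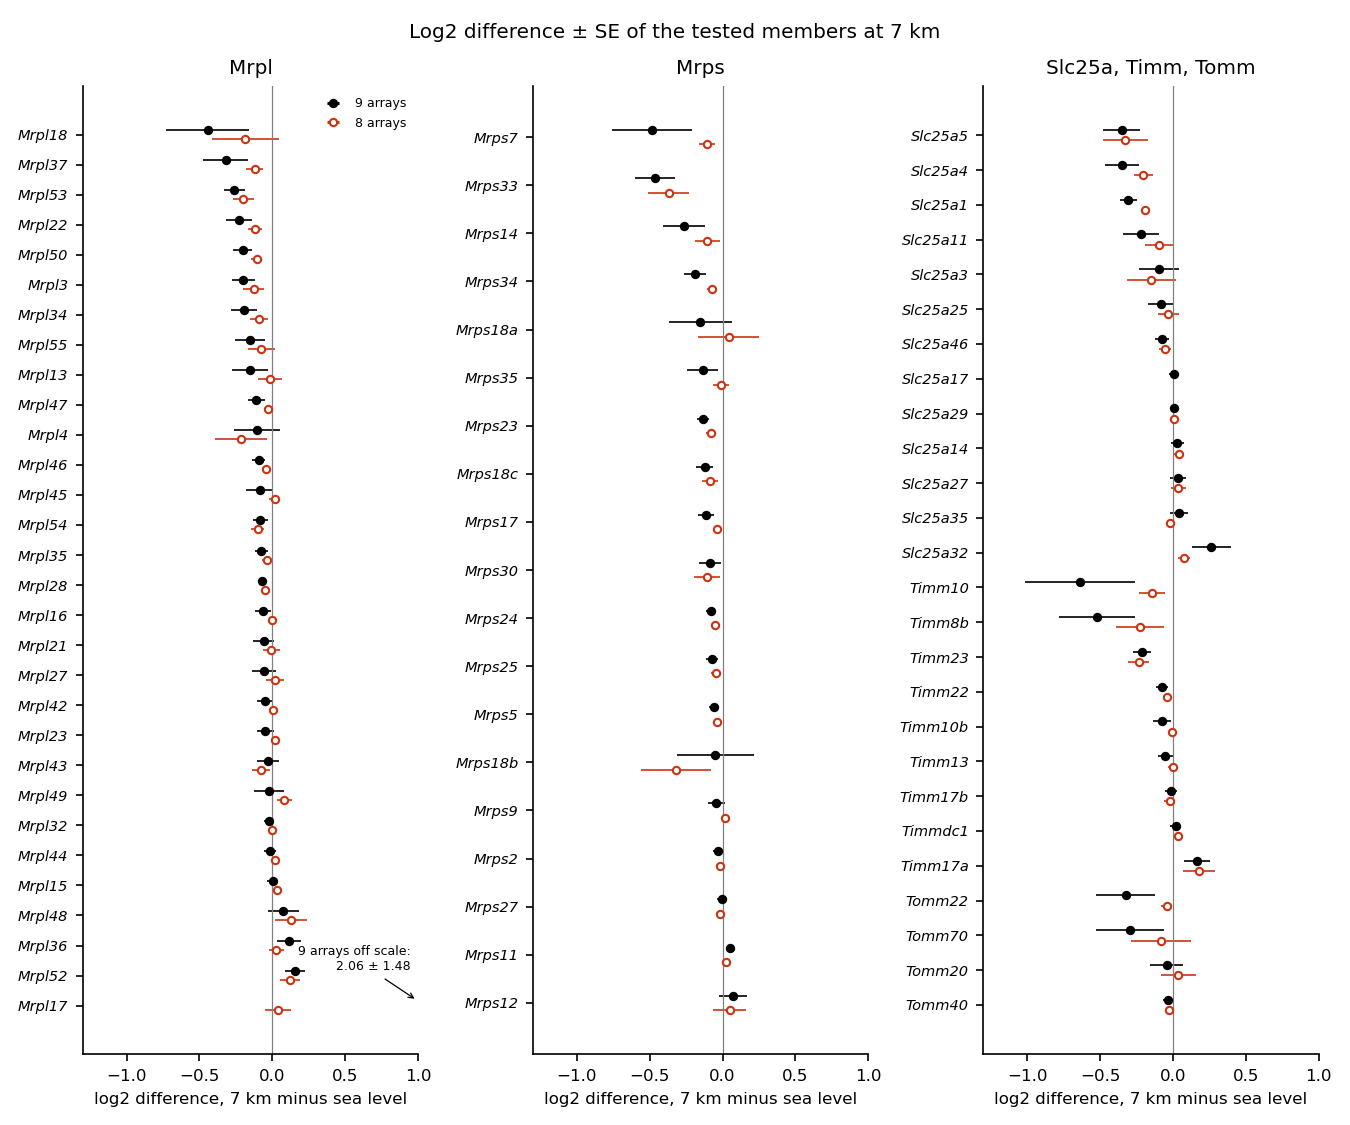
Difference of each tested gene between 7 km and sea level on the log2 scale (x axis, error bars 1 SE), with all 9 arrays (filled, black) and without sea level replicate 3 (open, red). Most points lie left of 0, the open points lie closer to 0 than the filled ones for Timm10, Mrps7 and Tomm22, and the filled value of Mrpl17 (2.06 ± 1.48) is off scale.

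Between 3 km and sea level the direction was less one-sided and depended on that array and on the scaling. With 9 arrays 50 of 75 genes were lower at 3 km, or 66.7%, against 50.3% of all tested probes, and with 8 arrays 41 of 74 were, or 55.4%, against 48.6%. The authors' deposited value table gave 34 of 75 lower with 9 arrays and 36 of 74 with 8, and median scaling gave 72 of 75 and 18 of 74, so the majority direction against 0 turned over. The median of all probes was at 0.12 with 9 arrays and 0.03 with 8 in the authors' table, and at -0.55 and 0.03 with median scaling. These counts against 0 therefore include a shift of all probes. At an unadjusted p below 0.05, 6 were lower and 2 higher (4.81% and 3.26% of all tested probes), and with 8 arrays 5 were lower and 4 higher (5.15% and 4.32%). Groups that did not overlap numbered 11 lower and 3 higher (10.7% and 8.8%), and with 8 arrays 12 lower and 11 higher (15.6% and 15%). Family medians with 9 arrays were -0.03 for Mrpl, -0.02 for Mrps, -0.06 for Slc25a, -0.05 for Timm and -0.10 for Tomm. With 8 arrays they were 0.00 for Mrpl, -0.01 for Mrps, -0.08 for Slc25a, 0.01 for Timm and -0.01 for Tomm. The carriers thus had the lowest 8-array median of the 5 families, with 9 of 12 lower. Both comparisons use the same sea level arrays, so their values are not independent of each other.

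**Figure D2:**
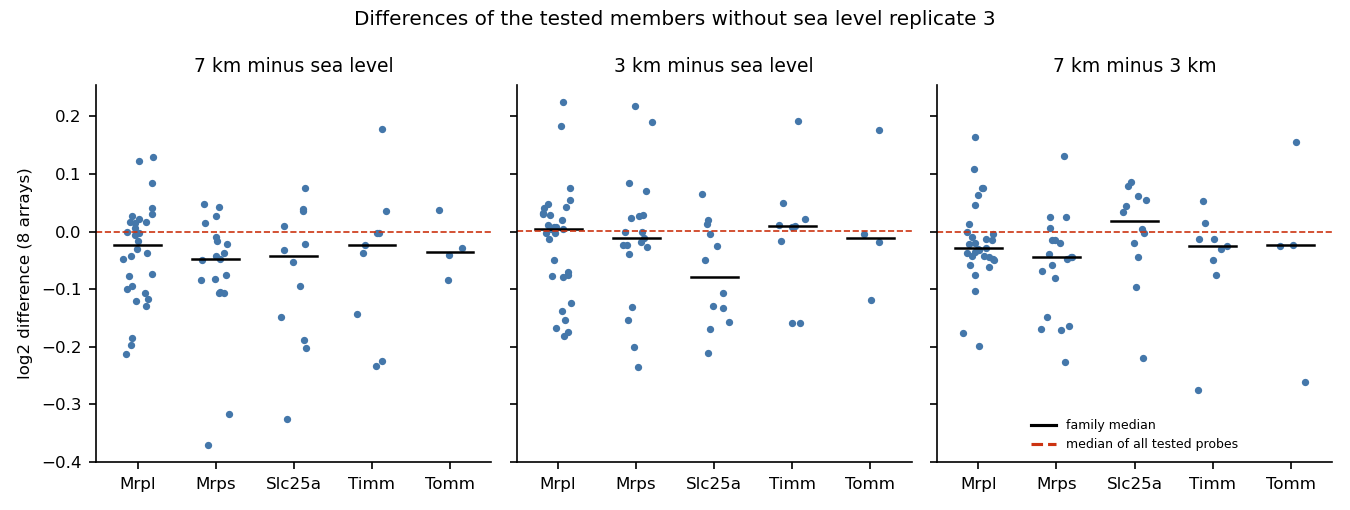
Differences of the tested genes on the log2 scale (y axis) by family in each comparison, computed on 8 arrays without sea level replicate 3. Each point is a gene, the black bar is the family median and the dashed red line the median of all tested probes. The family medians lie between -0.08 and 0.02.

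In 9 genes all 6 altitude arrays lay on 1 side of every sea level array. They were lower at altitude for Mrpl22, Mrpl50, Mrpl53, Slc25a1, Slc25a4 and Timm23, that is 6 of 75 genes where 5.2% of all tested probes did the same, and higher for Mrpl52, Mrps11 and Timm17a, that is 3 of 75 against 4.63%. With 8 arrays the same 6 genes were lower (of 74, against 7.19%), and Mrpl15 joined the other 3 as higher (4 of 74, against 6.69%). These shares are near those of all tested probes.

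**Figure D3:**
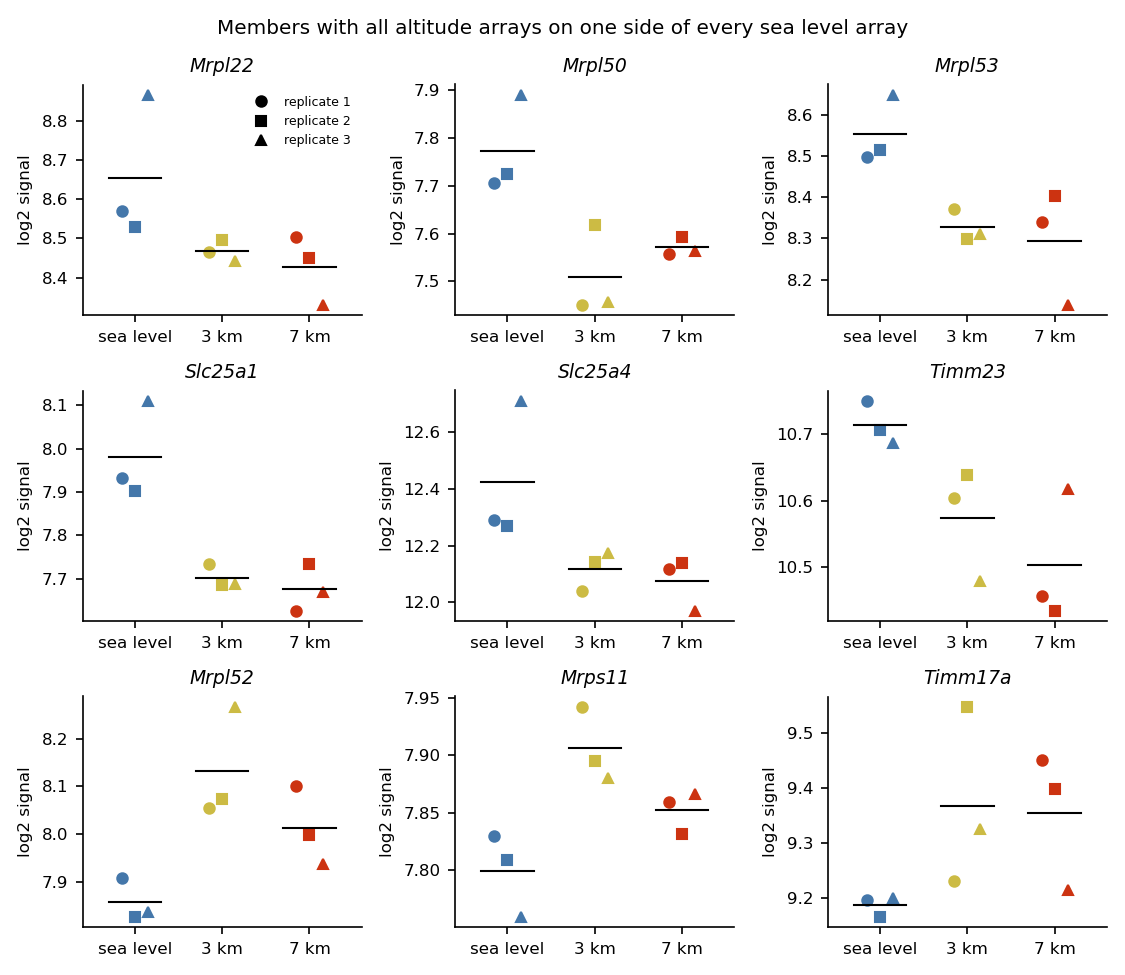
Log2 signal (y axis, with its own range in each panel) of the 9 genes in which all altitude arrays lay on 1 side of every sea level array, by altitude (x axis). Circles, squares and triangles are replicates 1, 2 and 3, and bars are group means. The upper 6 panels show genes that were lower at 3 km and 7 km, and the bottom row shows the 3 that were higher.

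Promoters of 4 of these genes are shown as the control regions of genes whose altitude arrays lay on 1 side of sea level, and were picked after those values were seen. Each sequence runs 5′ to 3′ along the gene's strand, from 250 bases before to 50 bases after the annotated start, and is taken from RefSeq on the GRCr8 build. Capitals mark matches, on either strand, to 6 motifs: the palindromic NRF1 motif, CCGGAAGT of the ETS family (which includes the NRF2 factor Gabpa), AAGATGGCG of YY1, the E-box CACGTG, and the 2 forms of the core to which hypoxia-inducible factors bind, ACGTG and GCGTG. Any E-box also holds ACGTG. The first is the promoter of Slc25a1 (chr11:96559804-96560103, plus strand), with 1 match to ACGTG and 5 to GCGTG. The second is Timm23 (chr16:7442570-7442869, minus strand), with 1 ETS match and 1 match to each hypoxia core. The third is Mrpl50 (chr5:68668038-68668337, minus strand), with a YY1 match that begins 26 bases after the start and 1 match to ACGTG. The last is Timm17a (chr13:49294355-49294654, minus strand), with 2 matches to GCGTG.
Slc25a1: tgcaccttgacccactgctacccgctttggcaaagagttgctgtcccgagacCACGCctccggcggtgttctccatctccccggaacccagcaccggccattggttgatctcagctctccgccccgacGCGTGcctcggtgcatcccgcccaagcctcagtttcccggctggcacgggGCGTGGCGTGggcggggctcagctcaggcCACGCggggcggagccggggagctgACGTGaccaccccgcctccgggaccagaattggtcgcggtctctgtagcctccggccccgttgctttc
Timm23: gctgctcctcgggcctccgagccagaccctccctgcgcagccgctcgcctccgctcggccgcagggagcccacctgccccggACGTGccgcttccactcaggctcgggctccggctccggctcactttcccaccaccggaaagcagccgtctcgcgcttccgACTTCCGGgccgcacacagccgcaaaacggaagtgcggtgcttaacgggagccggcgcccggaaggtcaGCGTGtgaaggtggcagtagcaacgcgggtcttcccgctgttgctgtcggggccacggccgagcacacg
Mrpl50: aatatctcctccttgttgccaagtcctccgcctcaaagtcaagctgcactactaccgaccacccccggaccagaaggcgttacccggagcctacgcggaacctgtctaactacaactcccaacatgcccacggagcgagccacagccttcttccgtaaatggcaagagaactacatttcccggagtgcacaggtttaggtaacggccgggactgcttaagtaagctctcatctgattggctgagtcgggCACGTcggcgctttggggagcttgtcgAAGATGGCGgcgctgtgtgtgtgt
Timm17a: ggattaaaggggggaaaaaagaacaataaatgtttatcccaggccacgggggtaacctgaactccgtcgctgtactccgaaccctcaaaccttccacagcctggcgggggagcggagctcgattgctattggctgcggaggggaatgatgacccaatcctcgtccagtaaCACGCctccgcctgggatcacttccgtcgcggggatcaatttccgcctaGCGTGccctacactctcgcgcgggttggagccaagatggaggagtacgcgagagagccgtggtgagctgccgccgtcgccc

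Of the 110 genes, 93 had a promoter in the RefSeq table. The ETS motif was found in 16 of the 93 (17.2%), against 3.81% of all 33469 promoters and 8.21% of the 4044 promoters of genes tested on these arrays. NRF1 was found in 11 of 93 (11.8%), against 4.25% and 9.97%. YY1 was found in 9 of 93 (9.68%), against 1.73% and 3.81%, and all 9 were mitoribosome genes (9 of 48 Mrpl and Mrps promoters, 0 of 45 others). The hypoxia cores were found in 27 promoters (29.0%, ACGTG) and 44 promoters (47.3%, GCGTG), against 19.3% and 29.7% of all promoters and 25.7% and 49.3% of those of tested genes. The median GC content was 57% for the 93 promoters, 51.7% for all and 60.3% for those of tested genes, and short GC-rich motifs are met more often in GC-rich sequence. A match is a run of letters and not a measured binding site.

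Slc25a1, the mitochondrial citrate carrier that delivers citrate for cytosolic acetyl-CoA, had the smallest adjusted p of all the genes described here in both comparisons with sea level. Its log2 signal was 7.93, 7.90 and 8.11 at sea level, 7.73, 7.69 and 7.69 at 3 km, and 7.63, 7.73 and 7.67 at 7 km. Every altitude array was below every sea level array, and the 3 km and 7 km arrays overlapped. The difference between 7 km and sea level was -0.31 ± 0.059 with 9 arrays (limma adjusted p = 0.156, 95% interval -0.44 to -0.17) and -0.19 ± 0.028 with 8 arrays (limma adjusted p = 0.0798). Between 3 km and sea level it was -0.28 ± 0.059 (limma adjusted p = 0.261) and -0.17 ± 0.028 with 8 arrays (limma adjusted p = 0.116). The value did pass in limma when arrays were given weights, at -0.22 for 7 km (adjusted p = 0.0189) and -0.21 for 3 km (adjusted p = 0.0169), and with 8 arrays and no background correction, at -0.52 for 7 km (adjusted p = 0.0459). Over the 24 alternatives its adjusted p lay between 0.0189 and 0.535 for 7 km and between 0.0169 and 0.663 for 3 km, and it was lower in all of them. The 7 km and 3 km means differed by -0.03 (95% interval -0.16 to 0.11).

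The adenine nucleotide translocases Slc25a4 and Slc25a5 exchange cytosolic ADP for matrix ATP. Slc25a4 was at 12.29, 12.27 and 12.71 at sea level, 12.04, 12.14 and 12.18 at 3 km, and 12.12, 12.14 and 11.97 at 7 km. The altitude arrays were all lower, the sea level mean was raised by replicate 3, and 7 km did not separate from 3 km. Its difference at 7 km was -0.35 ± 0.119 (limma adjusted p = 0.397), and -0.20 ± 0.062 with 8 arrays (limma adjusted p = 0.278). Slc25a5 was at 11.44, 11.48 and 11.57 at sea level, 11.04, 11.44 and 11.60 at 3 km, and 11.17, 11.12 and 11.15 at 7 km. Its 7 km arrays were close together and below all sea level arrays, while the 3 km arrays spanned both. The 7 km difference of -0.35 ± 0.128 was similar without sea level replicate 3, at -0.33 ± 0.154 (limma adjusted p = 0.414 and 0.461).

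The phosphate carrier Slc25a3, which supplies phosphate for ATP synthesis, overlapped between all groups, and its 7 km difference was -0.09 ± 0.137 with 9 arrays and -0.15 ± 0.167 with 8. The oxoglutarate-malate carrier Slc25a11, a part of the malate-aspartate shuttle, was at 8.35, 8.39 and 8.72 at sea level, 8.09, 8.28 and 8.33 at 3 km, and 8.44, 8.23 and 8.14 at 7 km. Its 3 km arrays were all below sea level, by -0.26 ± 0.123 in the mean (-0.13 ± 0.096 with 8 arrays). Its 7 km arrays overlapped sea level, with a difference of -0.22 ± 0.123 (-0.10 ± 0.096 with 8 arrays). Slc25a46, an outer membrane protein linked to mitochondrial fission and fusion, was tight at 3 km, at 7.67, 7.67 and 7.66, against 7.89, 7.79 and 7.86 at sea level. At 7 km it was at 7.87, 7.70 and 7.75, so the lower value was seen at 3 km, where the difference was -0.18 ± 0.048 (limma adjusted p = 0.403) and -0.13 ± 0.042 with 8 arrays.

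Most of the other tested carriers overlapped between 7 km and sea level. The brain uncoupling protein relatives Slc25a14 and Slc25a27 differed by 0.03 ± 0.045 and 0.03 ± 0.053 with 9 arrays and by 0.04 ± 0.033 and 0.04 ± 0.051 with 8. The ATP-Mg/phosphate carrier Slc25a25 differed by -0.08 ± 0.084, and by -0.03 ± 0.073 with 8 arrays. Slc25a32, a transporter of folate and FAD, was at 7.98, 8.07 and 7.95 at 7 km, against 7.91, 7.91 and 7.39 at sea level. It was the carrier with the highest positive difference at 7 km with 9 arrays, 0.26 ± 0.136, and with 8 arrays the difference was 0.08 ± 0.041. Sea level replicate 3 was the lowest of the 9 arrays for this gene.

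In the large ribosomal subunit, 25 of 30 tested Mrpl genes were lower at 7 km than at sea level with 9 arrays and 19 of 30 with 8 arrays. Mrpl53, a subunit without a bacterial counterpart, was at 8.50, 8.51 and 8.65 at sea level, 8.37, 8.30 and 8.31 at 3 km, and 8.34, 8.40 and 8.14 at 7 km. Both altitudes lay below sea level and overlapped with each other. Its 7 km difference was -0.26 ± 0.074 (limma adjusted p = 0.35), and -0.20 ± 0.070 with 8 arrays (limma adjusted p = 0.34). Mrpl50, also specific to mitochondrial ribosomes, was at 7.71, 7.72 and 7.89 at sea level, 7.45, 7.62 and 7.46 at 3 km, and 7.56, 7.59 and 7.56 at 7 km. Its lowest arrays were from 3 km, where the difference was -0.27 ± 0.064 (limma adjusted p = 0.311), against -0.15 ± 0.038 with 8 arrays. Mrpl22, which lines the exit of the nascent chain, and the core protein Mrpl3 differed at 7 km by -0.23 ± 0.090 and -0.20 ± 0.078, and by -0.12 ± 0.048 and -0.13 ± 0.069 with 8 arrays.

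Mrpl13 differed most from 3 km among the Mrpl genes, at 8.21, 8.23 and 8.14 at 7 km against 8.22, 8.46 and 8.54 at 3 km, a difference of -0.21 ± 0.123 (-0.20 ± 0.075 with 8 arrays) in groups that overlapped only by the lowest 3 km array.

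Mrpl52 went the other way. It was at 7.91, 7.83 and 7.84 at sea level, 8.05, 8.07 and 8.27 at 3 km, and 8.10, 8.00 and 7.94 at 7 km. Its level was highest at 3 km, with a difference from sea level of 0.27 ± 0.068 (limma adjusted p = 0.331) and 0.23 ± 0.069 with 8 arrays, and the 7 km difference was 0.15 ± 0.068 and 0.12 ± 0.069 with 8 arrays. Mrpl4 was noisy at 7 km, at 9.75, 10.25 and 10.17, against 10.28, 10.23 and 9.97 at sea level, and its difference was -0.11 ± 0.157 with 9 arrays and -0.21 ± 0.177 with 8. Mrpl18 ranged from 7.31 to 7.97 at 7 km, from 7.31 to 8.08 at 3 km and from 7.69 to 8.56 at sea level, so the groups overlapped, and its 7 km difference was -0.44 ± 0.287 with 9 arrays and -0.18 ± 0.230 with 8. Mrpl37 was at 8.41, 8.54 and 8.44 at 7 km, against 8.50, 8.67 and 9.17 at sea level, and its difference of -0.32 ± 0.153 was -0.12 ± 0.058 with 8 arrays. Among the lower-case symbols, the 7 km differences were -0.11 ± 0.054 for mrpl9 and -0.11 ± 0.053 for mrpl11 with 9 arrays and -0.08 ± 0.055 and -0.04 ± 0.018 with 8, and mrpl24 was not tested.

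Of 19 tested Mrps genes, 17 were lower at 7 km than at sea level with 9 arrays and 15 with 8 arrays. Mrps33 had the largest difference with an unadjusted p below 0.05 in the mitoribosome. It was at 9.61, 9.43 and 9.82 at sea level, 9.07, 9.40 and 9.49 at 3 km, and 9.27, 9.09 and 9.11 at 7 km. The 7 km arrays were all below sea level, and the 3 km arrays overlapped both groups. The difference at 7 km was -0.46 ± 0.135 (limma adjusted p = 0.358), and -0.37 ± 0.139 with 8 arrays (limma adjusted p = 0.36). Mrps23 differed by -0.13 ± 0.043 and Mrps34 by -0.19 ± 0.074, and with 8 arrays by -0.08 ± 0.031 and -0.07 ± 0.029. Mrps17 was at 7.66, 7.69 and 7.68 at 7 km, against 7.73, 7.72 and 7.92 at sea level, a difference of -0.11 ± 0.055, and of -0.04 ± 0.016 with 8 arrays. Mrps24 was not well above background on any 7 km array, with a mean of 7.40 there against 7.48 at sea level. Its difference at 7 km was -0.08 ± 0.035 with 9 arrays (limma adjusted p = 0.414), which sets no minimum size for a fall. With 8 arrays its difference was -0.05 ± 0.026.

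Other small subunit genes differed at 3 km. Mrps14 was at 8.80, 8.85 and 9.32 at sea level, 8.56, 8.73 and 8.48 at 3 km, and 8.82, 8.73 and 8.62 at 7 km. Its 3 km difference was -0.40 ± 0.142, and -0.24 ± 0.087 with 8 arrays (limma adjusted p = 0.533 and 0.476). Mrps11, a core protein of the subunit's platform, was at 7.83, 7.81 and 7.76 at sea level, 7.94, 7.90 and 7.88 at 3 km, and 7.86, 7.83 and 7.87 at 7 km. It was higher at 3 km by 0.11 ± 0.032 (limma adjusted p = 0.46) and by 0.07 ± 0.020 with 8 arrays. Mrps12, the counterpart of the bacterial decoding-centre protein, overlapped between all groups. Mrps18a and Mrps18b also overlapped between all groups, with 7 km differences from sea level of -0.15 ± 0.217 and -0.05 ± 0.265 with 9 arrays and of 0.04 ± 0.208 and -0.32 ± 0.241 with 8. In structures of the mammalian mitoribosome, Mrps18a and Mrps30 sit in the large subunit in spite of their names.

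Between 7 km and 3 km the mitoribosome was again mostly lower at the higher altitude, and neither group contains the discordant array. With 9 arrays 54 of 75 genes were lower at 7 km, or 72%, against 50.4% of all tested probes, and with 8 arrays 53 of 74 were (71.6% against 50.4%). Of the 49 mitoribosome genes 38 were lower with either set, with a median of -0.04 in each, while the tested carriers had a median of 0.01 with 9 arrays and 0.02 with 8. By array, only the Mrps family mean separated the groups, at -0.06 to -0.03 at 7 km against 0.00 to 0.05 at 3 km, and the Mrpl means overlapped, at -0.06 to 0.02 against -0.01 to 0.03. At an unadjusted p below 0.05, 3 genes were lower and 0 higher (1.95% and 0.751% of all tested probes), and with 8 arrays 7 and 0 (4.71% and 3.48%). Over the alternatives the count in either direction ran from 0 (median scaling, 9 arrays) to 40 of 74 (median scaling, 8 arrays). Median scaling shifted the median of all probes by -0.06 with either set, and the share of all probes at that threshold was not computed for it. The 40 of 74 therefore cannot be read as a result about these genes. Groups did not overlap for 9 lower and 2 higher genes (7.71% and 5.93%), with the same counts on 8 arrays (7.68% and 5.95%). The 9 lower genes were Mrpl32, Mrpl42, Mrpl54, Mrps5, Mrps11, Mrps18c, Mrps34, Mrps35 and Timm17b, and the 2 higher were Slc25a46 and Timmdc1, an assembly factor of respiratory complex I that shares the Timm name. The adjusted p of every one was 1 with 9 arrays, and the smallest on 8 arrays was 0.382.

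Mrpl54 was at 7.90, 8.00 and 7.94 at 7 km, against 8.21, 8.12 and 8.13 at 3 km. The difference was -0.20 ± 0.053 with 9 arrays and -0.18 ± 0.039 with 8, and the sea level arrays, at 8.13, 8.00 and 7.96, reached into both groups. Mrps35 was at 8.43, 8.41 and 8.25 at 7 km, against 8.62, 8.64 and 8.55 at 3 km, a difference of -0.24 ± 0.108 and, with 8 arrays, -0.23 ± 0.050. Its sea level replicates 1 and 2, at 8.38 and 8.37, were near the 7 km arrays, and replicate 3 was at 8.76. Mrps18c, at 8.08, 8.15 and 8.02 against 8.29, 8.29 and 8.23, differed by -0.19 ± 0.059 and Mrps5, at 7.55, 7.61 and 7.56 against 7.67, 7.71 and 7.63, by -0.09 ± 0.031. All 4 were lower at 7 km than at 3 km under each of the 24 alternatives. They come from the genes whose 7 km and 3 km arrays did not overlap, and the alternatives reuse the same arrays. The constant direction was thus largely set by that choice and is no independent support.

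**Figure D4:**
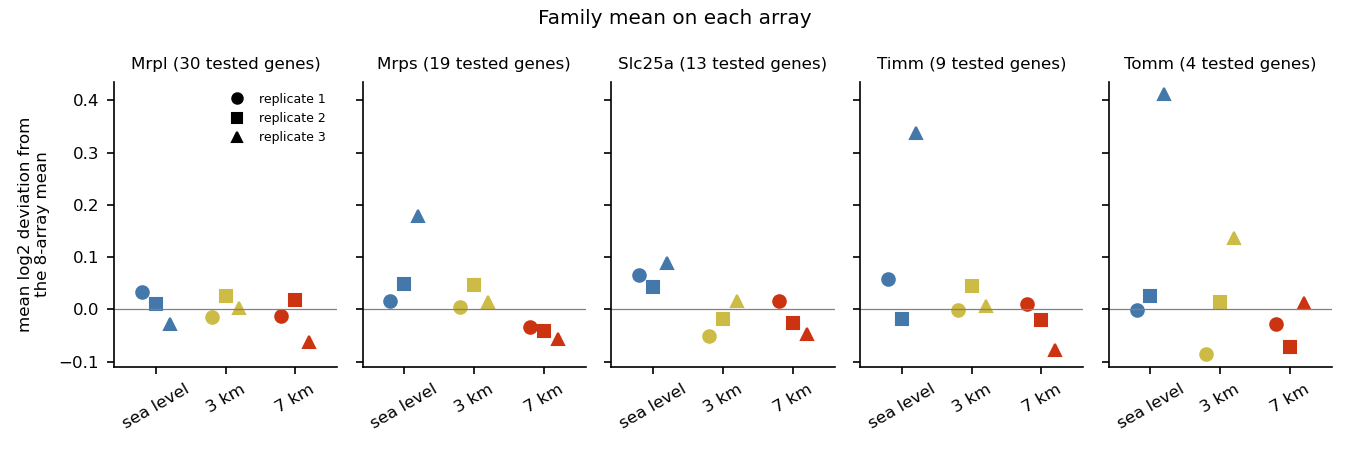
Mean deviation of the tested genes of each family on each array (y axis, log2 units, from each gene's mean over the 8 arrays without sea level replicate 3) by altitude (x axis). Marker shapes are replicates. Sea level replicate 3 is the highest array for Mrps, Slc25a, Timm and Tomm. For Mrpl its mean is -0.03, which includes Mrpl17, a gene close to background on that array alone. Its median deviation for Mrpl (not plotted) is 0.17, and 21 of 30 Mrpl genes are above all other 8 arrays there. The 3 arrays at 7 km are the lowest for Mrps, between -0.06 and -0.03.

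Among the import genes, Timm23, the channel of the presequence translocase, was at 10.75, 10.71 and 10.69 at sea level, 10.60, 10.64 and 10.48 at 3 km, and 10.46, 10.43 and 10.62 at 7 km. Its sea level arrays were close together, replicate 3 included, and above all altitude arrays. The 7 km difference was -0.21 ± 0.062 (limma adjusted p = 0.358), and -0.23 ± 0.073 with 8 arrays (limma adjusted p = 0.285). Timm17a and Timm17b are alternative partners of Timm23 in that complex. Timm17a was at 9.20, 9.17 and 9.20 at sea level, 9.23, 9.55 and 9.33 at 3 km, and 9.45, 9.40 and 9.21 at 7 km. It was higher at altitude on every array, by 0.17 ± 0.090 at 7 km (limma adjusted p = 0.415) and 0.18 ± 0.110 with 8 arrays. Timm17b differed by -0.01 ± 0.044 at 7 km, and by -0.02 ± 0.036 with 8 arrays.

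On the carrier import route, Timm22 was at 7.83, 7.86 and 7.79 at 7 km, against 7.88, 7.87 and 7.96 at sea level, with a difference of -0.08 ± 0.038 and, with 8 arrays, -0.04 ± 0.024. The small chaperone Timm8b was at 10.86, 10.50 and 10.34 at 7 km, against 10.92, 10.65 and 11.70 at sea level, and its difference of -0.52 ± 0.260 was -0.23 ± 0.163 without the last of these. Timm13 and Timm10b differed by -0.05 and -0.07 with 9 arrays and by -0.00 each with 8 arrays.

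The TOM receptors and pore overlapped between 7 km and sea level except for Tomm40. Tomm40, the pore, was at 7.62, 7.66 and 7.67 at 7 km, against 7.69, 7.68 and 7.67 at sea level, a difference of -0.04 ± 0.031 (-0.03 ± 0.022 with 8 arrays) in which the highest 7 km array was just below the lowest at sea level. Tomm22 differed by -0.32 ± 0.202 with 9 arrays and by -0.04 ± 0.038 with 8, and Tomm70 by -0.30 ± 0.234 and -0.08 ± 0.206. Tomm20, the presequence receptor, differed by -0.04 ± 0.112 and 0.04 ± 0.119. The Tomm median of -0.17 with 9 arrays was -0.04 without sea level replicate 3.

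That array departed from the others by different amounts for different genes. Of the 75 tested genes, 41 (54.7%) were above all other 8 arrays on it and 7 (9.33%) below all 8, whereas 38.1% of all tested probes were above and 37.2% below. The array was thus more often high than low for these genes, and it is 1 of the 3 sea level arrays behind the 9-array counts of lower genes. The median absolute departure from the median of the other arrays was 0.19 for these genes and 0.18 for all tested probes. It exceeded 1 log2 unit for 3 of 75 genes (4%), against 6.78% of all tested probes. Mrpl17, a protein near the exit of the nascent chain, was at 7.34 on it and at 13.10 to 13.53 on the other 8, so its signal there was close to background. Timm10, a carrier chaperone, was at 11.06 on it and at 9.29 to 9.66 on the others. Mrps7, a core protein of the small subunit, was at 9.39 on it and at 8.12 to 8.33 on the others. The 9-array differences of these 3 genes at 7 km were 2.06 ± 1.48, -0.64 ± 0.376 and -0.49 ± 0.276. With 8 arrays they were 0.04 ± 0.088, -0.14 ± 0.090 and -0.11 ± 0.057.

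**Figure D5:**
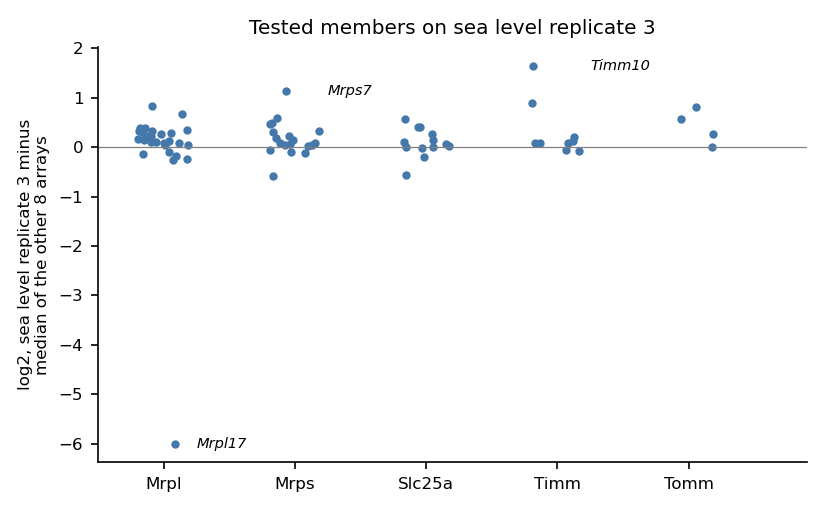
Log2 value of each tested gene on sea level replicate 3 minus its median over the other 8 arrays (y axis), by family (x axis). Named points lie beyond 1 log2 unit, and Mrpl17 lies at -6.00.

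Other genes of the same pathways were also without a call. Of 9 tested genes of mitochondrial translation, 5 were lower and 4 higher at 7 km than at sea level with 9 arrays, and the same with 8. The mitochondrial tyrosyl-tRNA synthetase Yars2 had the smallest p among them, with a difference of -0.13 ± 0.031 (limma adjusted p = 0.281) and -0.08 ± 0.016 with 8 arrays. Of 14 other import, processing and assembly factors, 12 were lower with 9 arrays and 9 with 8, with medians of -0.13 and -0.02, and the outer membrane protein Mtx2 differed by -0.22 ± 0.086 and -0.10 ± 0.037. Of 10 other membrane transporters, 8 were lower with either set, with medians of -0.09 and -0.07. Among them were the pyruvate carrier subunit Mpc1 (-0.08 ± 0.029, and -0.07 ± 0.017 with 8 arrays) and the outer membrane channel Vdac2 (-0.35 ± 0.135, and -0.23 ± 0.117 with 8 arrays). Of 8 genes of mitochondrial DNA maintenance and transcription, 5 were lower with 9 arrays and 4 with 8. The DNA helicase Twnk was higher by 0.41 ± 0.151 and by 0.20 ± 0.040 with 8 arrays (limma adjusted p = 0.414 and 0.141).

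Markers of several cell types moved beside these differences. All 8 tested oligodendrocyte markers were lower at 7 km than at sea level with 9 arrays (7 of 8 with 8 arrays), with a median difference of -0.46 and -0.30. The summed linear signal of these markers was 8306 to 9160 at sea level, 6405 to 8595 at 3 km and 3371 to 5580 at 7 km, and the defining marker Mag was detected on 0 arrays. All 5 tested markers of excitatory neurons were lower at 7 km (4 of 4 with 8 arrays), with summed signals of 8563 to 11480.0 at 7 km against 11224 to 14165 at sea level, the highest being sea level replicate 3. Camk2a, the marker not tested with 8 arrays, was at 7.44, 7.43 and 7.41 at 7 km, against 7.40, 7.41 and 7.52 at sea level, so its lower mean rested on replicate 3. The sum was mostly set by Nrgn, at 12.88 to 13.67 over the 9 arrays. The 7 tested interneuron markers had sums of 4945 to 6074 at 7 km against 5301 to 7560.5 at sea level, and the 7 tested astrocyte markers 17882 to 18408 against 16034 to 17678. By gene, 3 of the 7 astrocyte markers were higher and 4 lower at 7 km with either set of arrays, with medians of -0.02 (9 arrays) and -0.01 (8 arrays). Among those higher was Gjb6, at 11.28 to 11.48 at 7 km against 9.92 to 10.42 at sea level. The 3 tested endothelial markers summed to 2657 to 4691 at 7 km against 1642 to 2057 at sea level. By gene, 3 were higher with 9 arrays, and 2 were higher and 1 lower with 8. Only Vwf separated the groups, at 10.49 to 11.50 at 7 km against 7.71 to 10.08 at sea level. Cldn5 (10.02 to 10.88 against 9.48 to 10.32) and the dim Ly6c (7.41 to 7.46 against 7.29 to 7.45) overlapped. In this list 4 of 7 genes, Cdh5, Tek, Flt1 and Slc2a1, were detected on 0 arrays. The 2 tested choroid plexus and ependymal markers summed to 3671 on sea level replicate 3 and to 363 to 390 on the 3 km and 7 km arrays. That sum was set by Ttr, at 11.77 on that array, while Kcnj13 was the lowest of 9 there, at 7.42. Of this list, Folr1, Clic6, Aqp1 and Prlr were detected on 0 arrays. The 4 tested oligodendrocyte precursor markers summed to 1843 to 2307 at 7 km against 2336 to 3061 at sea level, groups that did not overlap. That sum was mostly set by Olig1, at 10.20 to 10.69 at 7 km against 10.76 to 11.22 at sea level. Sox10 and Cspg4 were also lower in the mean, but their groups overlapped. Pdgfra was higher in the mean, at 7.82 to 8.00 against 7.74 to 7.85, also with overlap, and Olig2 was detected on 0 arrays. Of 4 tested microglial markers, 3 were higher at 7 km with either set of arrays, 2 of them (C1qb and C1qc) at an unadjusted limma p below 0.05. The other, Aif1, was lower with either set, and passed that threshold with 9 arrays but not with 8. It was at 7.93 to 8.25 at 7 km, against 8.25 to 8.89 at sea level. Itgam, Cx3cr1 and Tyrobp were detected on 0 arrays. No marker of these lists passed an adjusted p of 0.05 in limma. The part of cell composition in the differences of the mitochondrial genes was not tested.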

How the data were processed

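Total RNA was extracted with Trizol, cleaned with DNase I treatment and labelled with biotin, per the labels' protocols. The deposited table holds the authors' non-normalized intensity of each probe on each of the 9 arrays and, beside it, the authors' detection p-value. The scanner software and earlier steps are not stated in those sources. Intensities were background-corrected and quantile-normalized with limma 3.58.1 in R 4.3.3 (neqc, offset 16, with negative control levels inferred from the deposited detection p-values) and taken to log2; the authors' deposited value table was used as an alternative. The offset shrinks the differences of dim probes.

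A probe was tested where its detection p-value was below 0.05 on 3 or more arrays, by limma's moderated test on group means (lmFit, eBayes), and p-values were adjusted by Benjamini-Hochberg over all tested probes, of which 6656 were tested with 9 arrays and 6499 with 8. Standard errors follow ±. Values per array come from the normalization of 9 arrays, and differences with 8 arrays from a normalization of those 8. Gene symbols came from the platform annotation, and 9170 probes without a symbol were tested but not named. Genes were named by a rule: per family and comparison the 4 with the smallest p with 9 arrays and the 4 with 8, per family the 3 with the highest mean level and the 3 farthest from the other arrays on sea level replicate 3, and a set list of carriers and import subunits. Named outside it, after their values were seen, are Mrpl15, Mrps30, Slc25a17 and genes listed only for their detection. The gene families and lists were chosen with earlier results of these data known. Promoters came from RefSeq. The number of arrays limits the precision, and the fit was tested on simulated data. These were drawn from the means and spread of the 8 arrays, with no discordant array and with changes larger than most differences given here. The simulation therefore does not show how the fit performs with sea level replicate 3 included or for smaller differences.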

Additional observations from a re-analysis of the deposited data

How the results depend on the processing

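With 3 arrays a group, 1 of which stood apart at sea level, small differences could not be detected, and dim probes carry differences pulled towards 0. In 24 alternative settings, 214 of 3582 values of the 50 tested genes covered by the naming rule, which were partly picked by smallest p, had the other sign and 3 passed an adjusted p of 0.05 in limma, all of Slc25a1. The cause of the changes below was not tested. Using the mean of all probes of a gene equals the values given, since each gene had 1 probe, and an offset of 50 changed none of the counts or medians beyond the limits used here.

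Against 8, 0 and 0 calls over all probes (7 km and 3 km each against sea level, and 7 km against 3 km), leaving out each array in turn gave 0 to 20 calls for 7 km and 0 to 1 for 3 km against sea level. Over these the Mrpl median ran from -0.0915 to -0.0234 for 7 km and from -0.0597 to 0.00402 for 3 km, and the Slc25a median from -0.0998 to -0.00058 and from -0.10 to -0.0414. Without background correction the 7 km medians were -0.15 for Mrpl and -0.17 for Mrps. Median scaling in place of quantile normalization gave 0 calls for 7 km and shifted the median of all probes by -0.64, -0.55 and -0.06 in the 3 comparisons. Its medians for Mrpl, Mrps, Slc25a, Timm and Tomm were -0.96, -0.94, -0.89, -0.95 and -1.29 for 7 km, -0.75, -0.73, -0.71, -0.71 and -0.92 for 3 km, and -0.13, -0.15, -0.0842, -0.16 and -0.21 between 7 km and 3 km. Under it 74, 72 and 73 of 75 genes were lower, and 60, 61 and 58 were below the median of all probes, against 59, 50 and 54 with quantile normalization. Detection on all 9 arrays gave 4 calls for 7 km and Slc25a medians of -0.14 for 3 km and 0.0377 between altitudes. No filter gave Slc25a medians of -0.00776 for 7 km and -0.0131 for 3 km and 1 call for 3 km. The authors' deposited value table gave 13, 3 and 1 calls and shifted the median of all probes by 0.09, 0.12 and -0.01. Its medians were -0.11 for Mrpl and -0.11 for Slc25a at 7 km, 0.0519 for Mrpl, 0.0538 for Mrps and -0.0141 for Slc25a at 3 km, and -0.0887, -0.14 and 0.0388 for Mrpl, Mrps and Slc25a between altitudes, with 49, 34 and 55 of 75 genes lower. A trend in eBayes gave 3 calls for each altitude, and a fit on the 6 arrays of 7 km and sea level gave 0. Array weights gave 176 and 120 calls, 1 of the genes described here in each, and an Mrpl median of -0.0225 for 7 km.

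Same-numbered arrays deviated together only in part (correlations of 0.013 to 0.305 over 9 pairs), against -0.303 to 0.277 for arrays of different number. No label says whether the numbers pair the arrays, and these correlations cannot settle it. With the replicate number as a block there were 0 calls for 7 km, and without sea level replicate 3 there were 3, with Mrpl medians of -0.0351 for 7 km and 0.00418 for 3 km. Without that array, no background correction gave 58 and 17 calls, 1 of the genes here for 7 km, Slc25a medians of -0.12 and -0.10, and an Mrpl median of 0.00588 for 3 km. Median scaling gave 2 calls for 7 km and 1 between altitudes, 3 km medians of 0.0428 for Mrpl and -0.0156 for Slc25a, and medians between altitudes of -0.13, -0.15, -0.0883, -0.16 and -0.21. The authors' deposited table gave 34, 17 and 4 calls, -0.18 for Mrps and -0.12 for Slc25a at 7 km, 0.0211 for Mrpl, -0.0974 for Slc25a and 0.067 for Timm at 3 km, and -0.0887, -0.14 and 0.0413 for Mrpl, Mrps and Slc25a between altitudes. No filter gave 2 calls for 3 km, Mrpl medians of -0.00906 and -0.000314, and Slc25a medians of 0.00164 and -0.00251.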
